A study of Homo sapiens with 8 samples.

Results

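The mRNAs of the cytosolic ribosomal proteins were examined in KYSE850, an established human esophageal squamous cell carcinoma line, after knockdown of KHSRP. Members were all probes whose RefSeq transcript belongs to a gene named RPL or RPS with a number, or to RPLP0, RPLP1, RPLP2 or RPSA, without the RPS6K kinases, pseudogenes and Y-linked copies. The rule found 152 probes of 42405 non-control probes, for 83 genes of the 20249 genes with a probe. RPL10 and RPSA had no matching probe and are not described. Of the members, 148 probes of 81 genes were bright enough to be tested, which required a signal well above background on all 4 arrays of at least 1 group.

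The first group of 4 arrays carried RNA of KYSE850 cells transfected with control siRNA, and 4 carried RNA of the same line transfected with siRNA against KHSRP, an RNA-binding protein that acts in mRNA decay and microRNA processing. The sources used here do not say which KHSRP siRNA was on which array, and they do not state whether the arrays of a group came from separate transfections, so p-values measure the spread between these arrays. Levels are log2 signals relative to the 75th percentile of the array, so that 0 is the signal at that percentile. At the brightest KHSRP probe the level was 6.03, 5.81, 6.39 and 6.08 with control siRNA and 2.52, 2.58, 2.88 and 2.85 with KHSRP siRNA. The groups were far apart, with 9.66% of the control signal left (log2 fold change -3.37, SE 0.16, adjusted p = 5.95e-05, and exact two-sided permutation p = 0.0286, the smallest that 4 against 4 allows). All 9 squamous epithelial markers were above background on all 8 arrays, including KRT5, KRT14 and TP63. Of 8 markers of fibroblasts, endothelium and blood, COL1A1 and CD14 were above background on all arrays and 4 were so on none, namely CDH5, PECAM1, COL1A2 and DCN.

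Apart from the siRNA, the arrays fell into sets that crossed the groups. The sets were read from deviations from the mean of each group, which leave out any difference between the groups. Subtracting that mean also makes arrays of the same group correlate negatively on average. Over the 17229 probes above background on all 8 arrays, deviations from the group means correlated at 0.33 to 0.86 within each set. The first set held control arrays 1 and 3 and KHSRP arrays 1 and 4. The second held control arrays 2 and 4 and KHSRP arrays 2 and 3. Between these sets of 4 arrays the deviations correlated at -0.77 to -0.17. The sets did not follow the slides, which held arrays 1 and 2, or arrays 3 and 4, of each group. In the deposited series matrix the columns of KHSRP siRNA 3 and 4 hold the values of each other's scanner file. With the series matrix numbers, each control array correlated positively with the KHSRP array of its number, and also with the other KHSRP array of its set. The labels state no pairing, so the choice of this block rests on these correlations. A fit with the series matrix number as a block is given beside the unblocked fit where it changed a call among the ribosomal proteins or in the related lists.

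Cytosolic ribosomal proteins are the protein part of the ribosome. Those of the small subunit, named RPS, line the channel in which the mRNA is decoded, and those of the large subunit, named RPL, surround the centre that joins amino acids and the tunnel through which the new chain leaves. RPLP0, RPLP1 and RPLP2 form the stalk that recruits elongation factors. Growing cells make ribosomes in large numbers, and the mRNAs of these proteins are among their most abundant. Most begin with a cytidine followed by a run of pyrimidines, the 5′ terminal oligopyrimidine (TOP) motif, through which mTOR and LARP1 control their translation. A few genes have paralogues that are used in particular tissues, such as RPL10L and RPL39L in testis and RPL3L in muscle.

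The first bases of the annotated transcripts show that motif. Sequences were available for 66 of the 83 genes in the RefSeq promoter table of assembly GRCh38.p14. A C at the annotated first base followed by 4 more bases that were each C or T, read on the strand of the gene, was found in 44 of the 60 genes other than the listed paralogues (73.3%), in 1 of 6 paralogues and in 1404 of 27305 genes of the table (5.14%). A run of 8 pyrimidines anywhere from 5 bases before to 10 bases after the start gave 46 of 60 (76.7%) against 7.35% of all genes. Mitochondrial ribosomal protein genes, whose products form a separate ribosome, had the tract in 6 of 69 cases (8.70%). The lines below give 10 bases before the annotated first base and 20 from it, 5′ to 3′ on the strand of the gene, with the tract in capitals where there was one. RPLP2, RPL13A and RPS27 are shown as clear examples of the motif, RPLP0, RPS23 and RPS26 because results below turn on them, and RPL22 beside its paralogue RPL22L1, with RPS27L and RPL7L1 as paralogues without the tract.
RPLP2 (chr11:809957-809986, plus strand): tcggcgccttCCTTTTCCTCCCTgtcgcca
RPL13A (chr19:49487598-49487627, plus strand): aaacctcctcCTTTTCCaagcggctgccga
RPS27 (chr1:153990752-153990781, plus strand): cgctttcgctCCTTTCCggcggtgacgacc
RPLP0 (chr12:120201092-120201121, minus strand): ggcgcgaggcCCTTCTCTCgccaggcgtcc
RPS23 (chr5:82278335-82278364, minus strand): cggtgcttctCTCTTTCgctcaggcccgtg
RPS26 (chr12:56041908-56041937, plus strand): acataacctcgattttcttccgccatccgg
RPL22 (chr1:6199576-6199605, minus strand): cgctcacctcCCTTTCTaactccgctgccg
RPL22L1 (chr3:170870176-170870205, minus strand): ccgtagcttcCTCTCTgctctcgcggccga
RPS27L (chr15:63157458-63157487, minus strand): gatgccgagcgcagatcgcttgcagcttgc
RPL7L1 (chr6:42879606-42879635, plus strand): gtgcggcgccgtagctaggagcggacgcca
In RPLP2 the tract ran over 13 bases from the first, and in RPL22L1, the only paralogue with one, over 6 bases. RPS26 had no tract at the annotated first base, which says only that the letters are not at that position in this annotation, and it did hold a run of 8 pyrimidines near the start.

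The ribosomal protein mRNAs gave bright signals. The brightest probe of each gene had a median level of 7.82, and on every array the middle 50% of these genes lay within 7.08 to 8.61. RPS2 (9.75), RPL13 (9.24) and RPS21 (9.23) were at the top of this range. RPL39L (0.92) and RPL7L1 (2.08) stood at the bottom, and the next was RPL26L1 (4.82), so that the 3 lowest were all paralogues. A probe's signal also depends on the probe itself, so the levels of different probes are a description and no ratio between mRNAs. Of the 148 tested probes, 147 were above background on all 8 arrays, and no spot on any array was saturated. The 4 probes that were not tested were 1 each of RPL27A, RPL28, RPL3L and RPS24. That of RPL28 was above background on no array, and RPL27A and RPL3L had no other probe.

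The spread between arrays of a group was small for most members. The median SD within a group was 0.20 on the log2 scale over the 148 probes, and 0.26 over all 18761 tested probes. The brightest probe of RPL39, which encodes a short protein at the exit tunnel, had the smallest SD among the genes, 0.045, with levels of 7.27, 7.30, 7.38 and 7.34 with control siRNA and 7.41, 7.34, 7.34 and 7.40 with KHSRP siRNA. Its groups overlapped. The SD was above 0.5 for 11 of the 148 probes. The largest values were 1.73 at 1 of 3 RPL13A probes, 1.25 at the brightest RPS10 probe and 1.23 at RPL39L. By gene, at the brightest probe, the median SD was 0.17 for the members and 0.25 for all tested genes. It was 0.18 for ribosome biogenesis factors and for mitochondrial ribosomal protein genes, which had median levels of 2.86 and 3.92. In the other related lists it was 0.066 (FAU and RACK1) to 0.23 (chaperones). The ribosomal protein probes were also far brighter than all tested probes (median level 7.34 against 0.43), and the part of brightness in their smaller spread was not tested.

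With KHSRP siRNA most ribosomal protein mRNAs lay near their control level. The median log2 fold change was 0.014 over the 148 probes, with the middle 50% from -0.060 to 0.085, and 0.012 over all tested probes, with the middle 50% from -0.20 to 0.21. The change was within 0.25 of 0 for 133 of the 148 probes (89.9%), where 58.8% of all tested probes were. The 95% interval of the change lay inside 1.5-fold in either direction for 113 of 148 probes (76.4%), against 40% of all tested probes. By gene, at the brightest probe, these shares were 95.1% and 82.7% for the members and 58.5% and 41.4% for all tested genes. Related lists described below were closer to the members. Apart from FAU and RACK1, their shares were 74.0% (mitochondrial) to 85.7% (other TOP mRNAs), and 66.7% (chaperones) to 81.8% (regulators of TOP mRNAs). These summaries were chosen after the values had been seen, and they are descriptions. By gene, with the brightest probe standing for it, 45 genes were above 0 and 36 below, with a median of 0.020. Large subunit genes ranged from -0.22 to 0.24 (50 genes) and small subunit genes from -0.45 to 0.95 (31 genes).

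A probe passed when its adjusted p, from limma over all tested probes, was under 0.05. Only 1 of the 148 probes passed, a probe of RPS26 that was tested only through the control group and was lower with KHSRP siRNA. That is 0.676% of the members, where 5.54% of all tested probes passed (1.92% higher and 3.62% lower). By gene, with the brightest probe, 0 of 81 passed with limma and 1 of 81 had an unadjusted p under 0.05, where 6.19% of all genes passed (2.14% higher and 4.06% lower). That gene was RPS26, whose brightest probe passed with the methods' t-test (adjusted p = 0.0491). No large subunit probe passed. At an unadjusted p under 0.05 there were 6 of 148 probes, and 19.6% of all tested probes. The groups did not overlap at 5 probes (3.38%), 2 of them higher and 3 lower, against 14.8% of all tested probes (6.09% higher and 8.69% lower). With the replicate block of the series matrix numbers, 7 member probes passed, 2 higher and 5 lower (4.73%), where 30.1% of all tested probes did (14.8% higher and 15.3% lower).

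**Figure D1:**
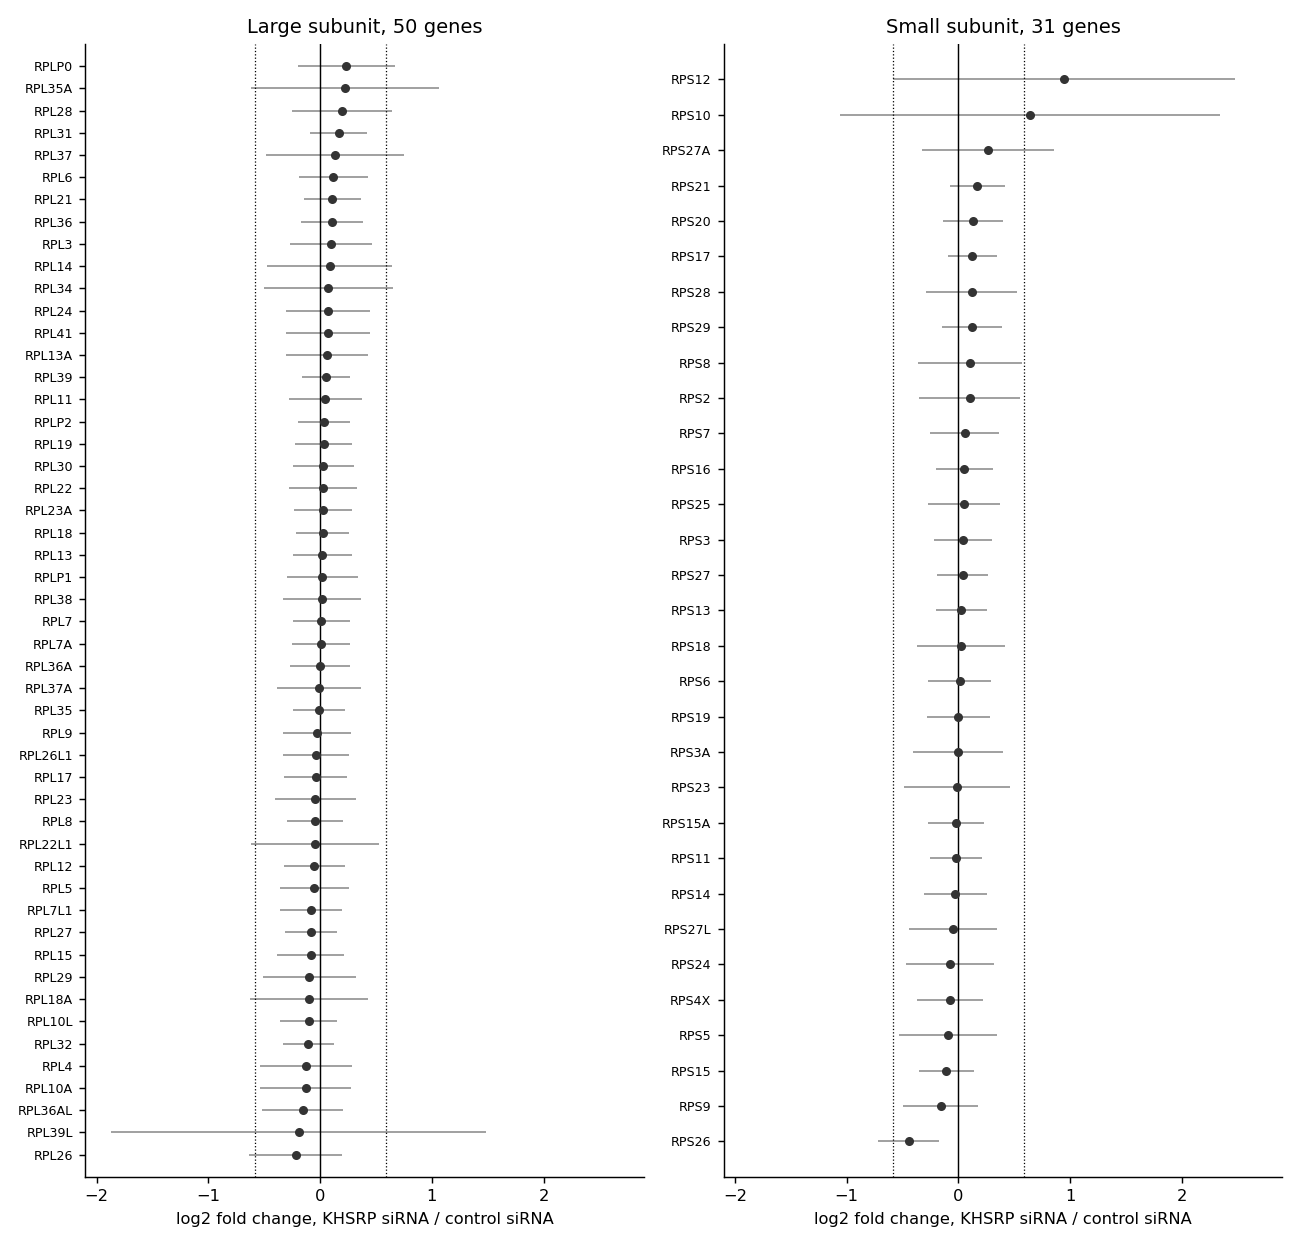
Log2 fold change of KHSRP siRNA over control siRNA (horizontal axis) for the brightest probe of each gene of the large subunit (left, 50 genes) and the small subunit (right, 31 genes), with 95% intervals from limma over 4 and 4 arrays as bars and 1.5-fold as dotted lines. Most points lie close to 0, RPS26 lies lowest at -0.45, and RPS12, RPS10 and RPL39L have the widest intervals.

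**Figure D2:**
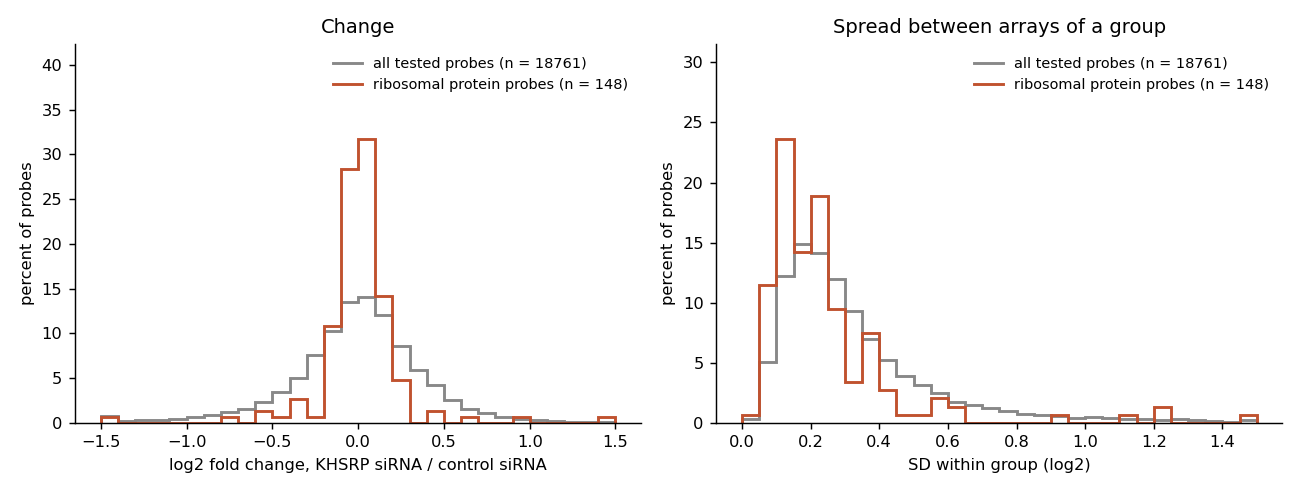
Percent of probes (vertical axes) by log2 fold change (left) and by SD within a group in log2 units (right), for 148 ribosomal protein probes and all 18761 tested probes, with values past the ends counted in the outermost bins. The ribosomal protein probes stand more closely around 0, and their SD has a median of 0.20 against 0.26.

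RPS26 was lower with KHSRP siRNA at the 1 of its 3 probes that passed. RPS26 encodes a small subunit protein next to the mRNA exit site, which contacts the mRNA just upstream of the start codon. At the dimmest of the 3, A_23_P139471, the level was -0.94, -0.94, -0.85 and -1.24 on the control arrays and -2.26, -2.27, -2.84 and -2.20 on the KHSRP siRNA arrays. All control arrays lay above all KHSRP siRNA arrays, and the level fell by 1.40 (2.64-fold, SE 0.17, adjusted p = 0.0035). The signal was well above background on all 4 control arrays and on 3 of the 4 KHSRP siRNA arrays. The probe was therefore tested only through the control group, where its level was higher. In bulk RNA, fewer cells that carry an mRNA and less of it per cell cannot be told apart. With normexp background correction the change was -0.41 (adjusted p = 0.026), so the size of the change at this dim probe depended on how background was handled, while it was -1.33 within slide 1 and -1.47 within slide 2.

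At A_23_P116694, the brightest RPS26 probe, the level was 8.50, 8.43, 8.62 and 8.76 with control siRNA and 8.02, 8.23, 8.23 and 8.05 with KHSRP siRNA. At A_24_P289404 it was 6.27, 6.41, 6.27 and 6.15 with control siRNA and 5.78, 5.80, 5.96 and 5.56 with KHSRP siRNA. Again the groups did not overlap at either probe. Neither passed, at -0.45 (SE 0.12, adjusted p = 0.0682) and -0.50 (SE 0.12, adjusted p = 0.0521). Both passed with the replicate block of the series matrix numbers (adjusted p = 0.0145 and 0.0176), under which the dimmest probe also passed (adjusted p = 0.00089). The annotation holds 59 pseudogenes of RPS26, and signal of such copies cannot be told apart here, since the probe sequences were not used here.

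Among the 7 probes that passed under that block were 4 of other genes, named after their values were seen. Each was a probe of a gene whose other probes did not pass under either fit. RPS29 encodes a small zinc-binding protein of the small subunit head. Its probe A_33_P3282840, assigned to a second transcript of the gene, gave 0.56, 1.54, -0.10 and 1.79 with control siRNA and 1.95, 3.15, 3.13 and 1.26 with KHSRP siRNA. The groups overlapped, and in each group the arrays of the same correlated set were high. On the log2 scale KHSRP siRNA exceeded control siRNA by 1.43 (SE 0.54, adjusted p = 0.187, and 0.00082 with the block), with 1.499 within slide 1 and 1.35 within slide 2. The other 3 RPS29 probes lay between -0.076 and 0.12. Their mean levels were 7.33 to 7.94, where that of A_33_P3282840 was 1.66.

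RPS23 encodes a protein at the decoding centre. Its probe A_33_P3257714 gave 1.87, 2.38, 2.14 and 2.52 with control siRNA and 1.08, 1.82, 2.02 and 1.16 with KHSRP siRNA, which overlapped. The difference in mean level was -0.71 (SE 0.25, adjusted p = 0.148, and 0.0064 with the block), while the brighter RPS23 probe gave -0.014 (SE 0.21). RPL15 is a large subunit protein. At its probe A_23_P253200 the levels were 2.96, 3.39, 2.84 and 3.45 against 2.46, 3.15, 3.10 and 2.49, which overlapped, with a difference of -0.36 (SE 0.22, adjusted p = 0.445, and 0.0155 with the block). The brighter RPL15 probe gave -0.083 (SE 0.13).

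RPLP0, which anchors the stalk to the large subunit and is often used as a reference gene, had the one bright probe of these 4. At this probe, A_23_P204472, which is printed in 10 spots per array, the level was 7.19, 7.41, 7.001 and 7.46 with control siRNA and 7.65, 7.87, 7.83 and 7.51 with KHSRP siRNA. The groups did not overlap and differed by 0.45 (SE 0.14, adjusted p = 0.122, and 0.0063 with the block). The other RPLP0 probe gave 8.32, 8.54, 8.07 and 8.54 against 8.75, 8.15, 8.93 and 8.59, which overlapped, with 0.24 (SE 0.19, adjusted p = 0.589).

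**Figure D3:**
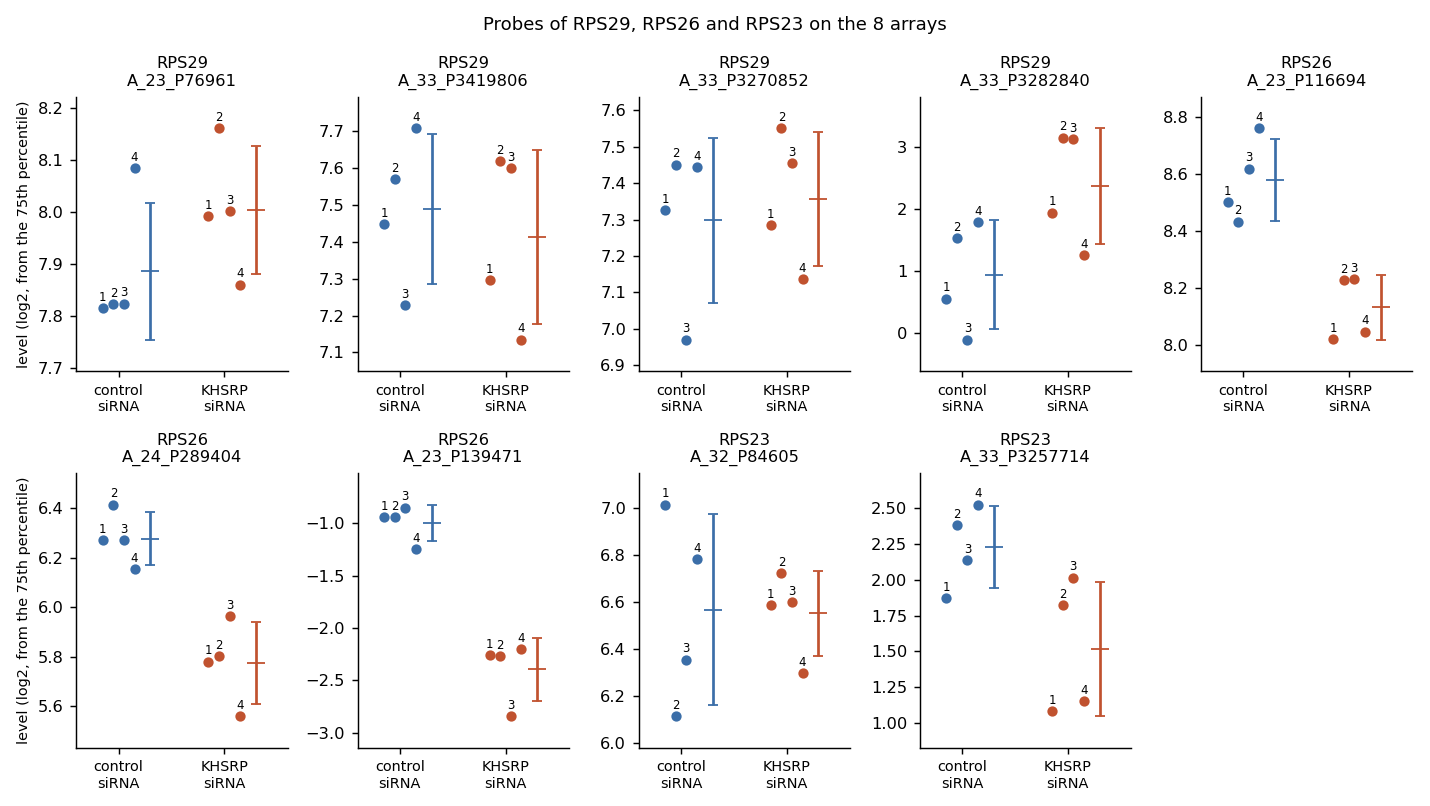
Level of every tested probe of RPS29, RPS26 and RPS23 (log2 from the 75th percentile of the array, vertical axes that differ between panels and do not start at 0) on the 4 control siRNA arrays (blue) and the 4 KHSRP siRNA arrays (red), with the array number at each point and mean and SD to its right. The groups are apart at all 3 RPS26 probes, and they overlap at every probe of RPS29 and RPS23.

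At the ends of the list, the changes were small or the arrays spread widely. On the large subunit the highest changes were those of RPLP0 (0.24), RPL35A (0.22, SE 0.37) and RPL28 (0.20, SE 0.20), and the lowest those of RPL26 (-0.22, SE 0.18), RPL39L (-0.19, SE 0.74) and RPL36AL (-0.16, SE 0.16). On the small subunit the lowest after RPS26 were RPS9 (-0.16, SE 0.15) and RPS15 (-0.11, SE 0.11), and RPS27A, made as a fusion with ubiquitin, was at 0.26 (SE 0.26). None of these passed, with adjusted p from 0.589 to 0.937.

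RPS12 and RPS10 had the highest changes, 0.95 (SE 0.67) and 0.64 (SE 0.75), and in both 1 control array lay far below the rest. RPS12 lies in the small subunit head, and RPS10 at its beak. RPS12 gave 6.27, 3.28, 6.04 and 6.57 with control siRNA and 5.91, 6.65, 6.52 and 6.86 with KHSRP siRNA. The brightest RPS10 probe gave 7.97, 4.74, 8.09 and 8.26 against 7.19, 8.22, 8.30 and 7.89. Control array 2 was lowest by far at both. Without it the changes were 0.19 for RPS12 and -0.20 for RPS10. RPL35A showed the same array low, at 7.34 where the other 3 control arrays gave 8.803 to 8.94, and its change was -0.16 without it. At 1 of 3 RPL13A probes control array 2 gave 2.47 and the others 6.59 to 6.72.

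The other probes of these genes did not share the drop. At the other 3 RPS10 probes control array 2 gave 7.14, 7.18 and 6.51 and was the lowest of its group at none of them. At the other RPL13A probes it gave 7.59 and 6.15, where the other control arrays gave 7.70 to 7.97 and 5.90 to 6.31. KHSRP siRNA array 1 was the lowest of its group at these 4 probes too, with 4.23 at RPL13A, 7.19 at RPS10, 8.21 at RPL35A and 5.91 at RPS12. Low arrays were counted over all tested probes where both of these conditions held. The array lay more than 1 below the next array of its group. Dixon's ratio, the gap to the nearest array over the range of the group, was past its limit. Control array 2 met both conditions at 57 probes (0.304%), of which 4 were ribosomal protein probes. KHSRP siRNA array 2 did so at 44 probes (0.235%), of which 1 was a member, the RPS10 probe A_24_P418619, with 4.59 where the other KHSRP siRNA arrays gave 6.197 to 6.37. The other 6 arrays did so at 3 to 19 probes and at no member. Some wide gaps did not pass the limit on the ratio. KHSRP siRNA array 1 gave 4.23 at the RPL13A probe, where the other KHSRP siRNA arrays gave 6.43 to 6.92. Control array 2 gave 6.15 at RPL37 A_24_P20777, where the other control arrays gave 7.16 to 7.40. It gave 2.22 at RPL5 A_23_P12140 (others 3.59 to 3.94) and 4.32 at RPL26 A_33_P3257943 (others 5.42 to 5.79). RPS12 and RPL35A had 1 tested probe each, so for them no second probe can be read.

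Of the 8 listed paralogues, 7 were tested, and none passed. Their log2 fold changes were -0.19 for RPL39L, -0.16 for RPL36AL, -0.10 for RPL10L, -0.080 for RPL7L1, -0.050 for RPS27L, -0.046 for RPL22L1 and -0.037 for RPL26L1, with adjusted p from 0.686 to 0.957. The genes they resemble were at 0.050 (RPL39), -0.0012 (RPL36A), 0.011 (RPL7), 0.038 (RPS27), 0.027 (RPL22) and -0.22 (RPL26). With single arrays left out, and under some scalings or array weights, the signs of RPL22L1, RPL26L1, RPL39L and RPS27L turned, so the common sign of the paralogues is no result. RPL10L is so similar to RPL10 that signal from RPL10 cannot be told apart here, and RPL36AL and RPL36A pose the same limit.

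RPL39L differed from the rest in its spread. It gave 1.78, 0.45, 2.26 and -0.44 with control siRNA and 1.84, 0.14, -0.57 and 1.87 with KHSRP siRNA. Levels near 2 were found on control arrays 1 and 3 and KHSRP arrays 1 and 4, and levels below 0.5 on the other 4, so that both groups held high and low arrays. These are the correlated sets described above. The summed signal of the 9 squamous markers, relative to the 75th percentile, was 553 to 708 on the 4 arrays with high RPL39L and 210 to 325 on the other 4. The part of the squamous marker levels in the spread of RPL39L was not tested. Without a block the 95% interval of its change reached from -1.87 to 1.49 (SE 0.74). With the replicate block of the series matrix numbers the SE was 0.094 and the change, -0.19, did not pass either (adjusted p = 0.18), with -0.12 within slide 1 and -0.26 within slide 2.

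**Figure D4:**
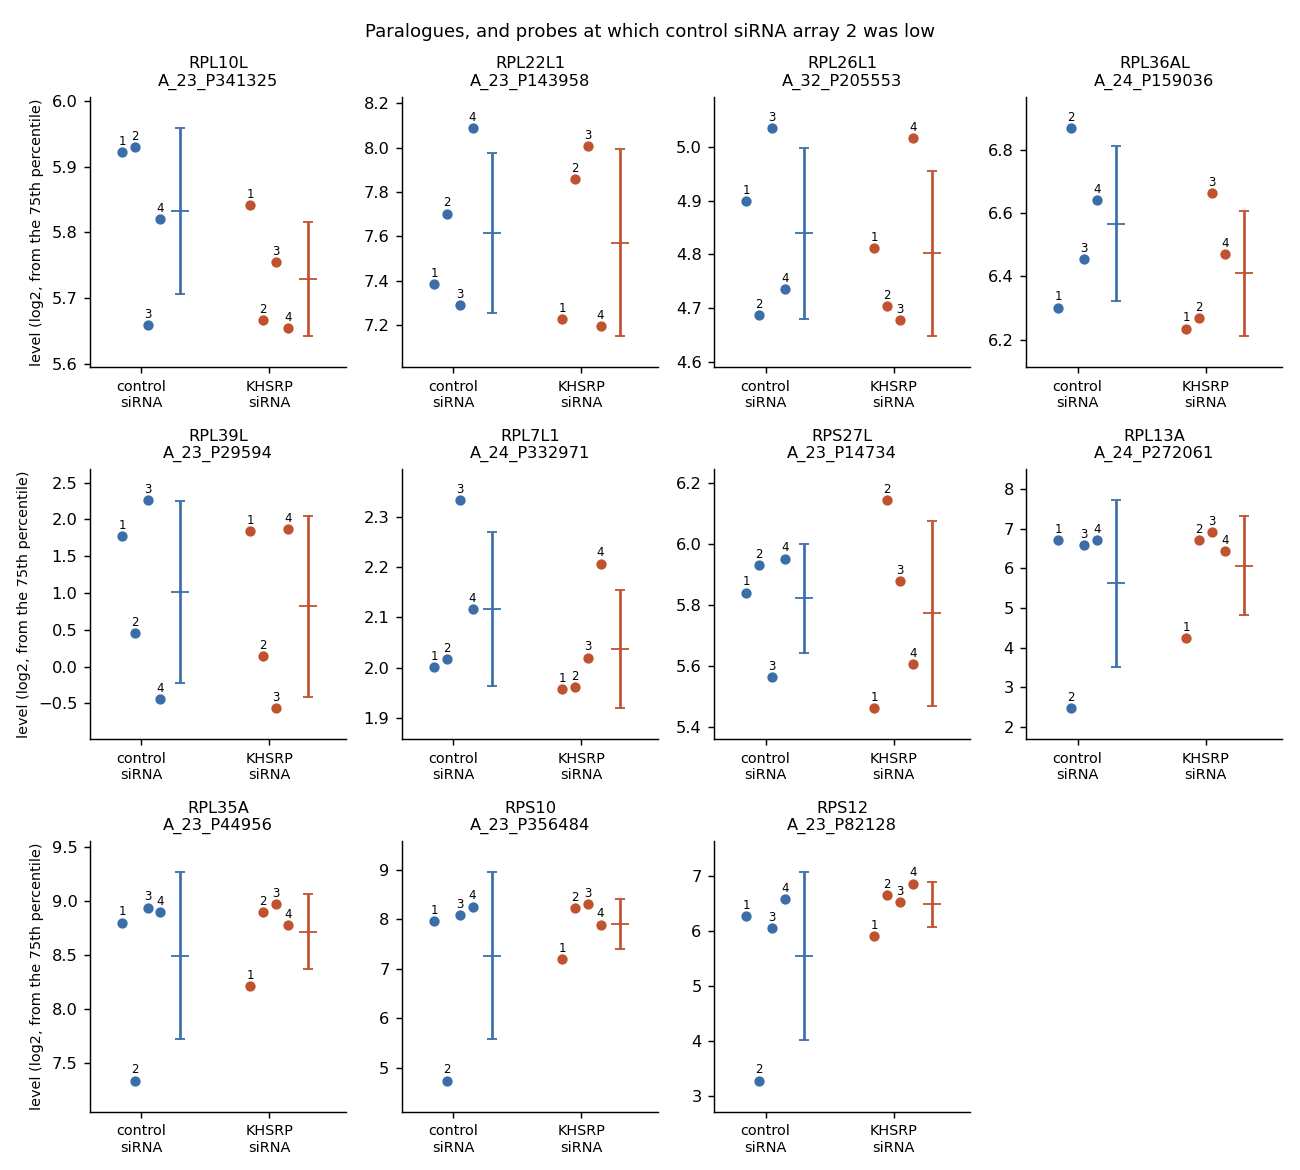
Level (log2 from the 75th percentile) of the 7 tested paralogues and of 4 further probes on control siRNA (blue) and KHSRP siRNA (red) arrays. At these 4 probes control siRNA array 2 lay more than 1 below the next control array and past the limit on Dixon's ratio. Axes differ between panels and do not start at 0. The array number is at each point, with mean and SD to its right. RPL39L has high and low arrays in both groups, and at RPL13A, RPL35A, RPS10 and RPS12 control array 2 lies far below the other control arrays.

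Several probes of a gene mostly gave like changes. For 37 genes with 2 or more tested probes (104 probes), the changes of a gene spanned a median of 0.13, under 0.25 in 25 genes and over 0.5 in 5 genes. In 21 genes probes lay on both sides of 0. The widest spans were those of RPS29 (1.502), RPS10 (1.18), RPS26 (0.95), RPS23 (0.70) and RPL28 (0.52). RPL21, with 9 probes and 137 pseudogenes in the annotation, spanned -0.32 to 0.11. In all, 76 of the 83 genes had at least 1 annotated pseudogene, with a median of 14, and probes could report such copies as well as the gene.

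The members' median differed from array to array within each group. The median deviation of the 81 genes from their mean over 8 arrays was -0.054, -0.0069, -0.058 and 0.13 on the control arrays and -0.10, 0.026, 0.14 and -0.017 on the KHSRP siRNA arrays. On control array 4, 72 of 81 genes were above their mean, on KHSRP siRNA array 3 it was 68, and on KHSRP siRNA array 1 it was 20. The groups overlapped. The same median over all tested genes moved less, from -0.038 to 0.045.

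Genes that make or regulate ribosomes were set beside the members. FAU and RACK1, small subunit proteins whose symbols do not begin with RPS, were at -0.044 (SE 0.11) and -0.061 (SE 0.092), and neither passed. Of 14 other mRNAs known to carry the TOP motif, 2 passed and both fell (14.3%, where 6.19% of all genes passed and 4.06% were lower). PABPC1, the poly(A)-binding protein, fell by 1.32 (SE 0.12, adjusted p = 0.00108), and HNRNPA1, a splicing factor, fell by 0.56 at its brightest probe (SE 0.11, adjusted p = 0.0241) and was at -0.028 at a dimmer one. The levels of PABPC1 were 7.02, 6.98, 7.04 and 6.70 with control siRNA and 5.50, 5.63, 5.76 and 5.56 with KHSRP siRNA, far apart. The median of that list was -0.045.

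Of 11 regulators of TOP mRNAs, 2 passed and both fell (18.2%, against 6.19% of all genes). EIF4EBP2, a translation repressor that mTOR inactivates, fell by 1.89 (SE 0.15, adjusted p = 0.000703), and RPS6KB1, the kinase of the RPS6 protein, fell by 1.41 (SE 0.31, adjusted p = 0.0356). At second probes both were lower as well, at -0.87 and -0.80 (adjusted p = 0.0312 and 0.0345). LARP1 and MTOR were among the 9 that did not pass. Of 44 tested ribosome biogenesis factors, 3 passed without the block (6.82%, against 6.19% of all genes) and all 3 fell, DDX21, a helicase of rRNA transcription and processing, by 1.30 (SE 0.14, adjusted p = 0.00215), SBDS, which frees the large subunit of EIF6, by 0.95 (SE 0.12, adjusted p = 0.00414) and GAR1, a part of H/ACA particles, by 0.94 (SE 0.13, adjusted p = 0.00668). A second SBDS probe gave -0.41 (adjusted p = 0.667). The list had a median of -0.064. With the replicate block of the series matrix numbers, 8 of the 44 passed, 3 higher and 5 lower (18.2%), where 33% of all genes did. The added genes, named after their values were seen, were UBTF (0.47), POLR1B (0.30) and NOB1 (0.30), which were higher, and LTV1 (-0.36) and WDR43 (-0.31), which were lower, with adjusted p from 0.0131 to 0.0347 under the block and from 0.0905 to 0.512 without it. Of 6 chaperones of ribosomal proteins none passed without the block, where 6.19% of all genes did. With the block 1 did (16.7%, where 33% of all genes did). It was PDCD2L, which was higher by 0.35 (adjusted p = 0.0408, and 0.397 without the block). In the lists of other TOP mRNAs and of their regulators the block added no call and cost none. Their shares with it were 14.3% and 18.2%, below the 33% of all genes.

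The 77 tested mitochondrial ribosomal protein genes had a median of -0.070, and 1 of them passed (1.30%, where 6.19% of all genes passed and 4.06% were lower). It was MRPL54, which fell by 0.47 (SE 0.098, adjusted p = 0.0302). With the replicate block of the series matrix numbers, 16 of these 77 genes passed, 3 higher and 13 lower (20.8%), where 33% of all genes did. Of the 81 cytosolic genes 1 did, RPS26. Left out in turn, each of the 8 arrays cost MRPL54 its call, 7 of 8 cost HNRNPA1 its call and 6 of 8 cost RPS6KB1 its call, while PABPC1, EIF4EBP2, DDX21, SBDS and GAR1 passed in all 8.

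**Figure D5:**
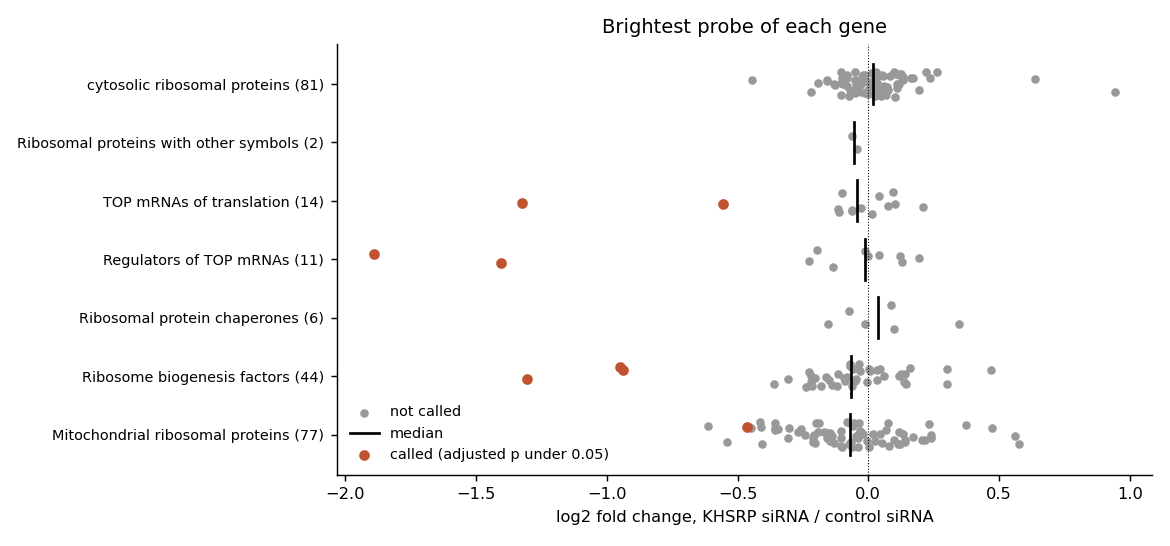
Log2 fold change of KHSRP siRNA over control siRNA (horizontal axis) of the brightest probe of each gene, by list, with the number of genes in parentheses, the median as a black bar and genes that passed in red (vertical jitter only separates the points). The cytosolic ribosomal protein genes cluster around a median of 0.020, and the 8 genes that passed without a block all lie below 0.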

How the data were processed

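The authors hybridised Cy3-labelled cRNA to 1-colour Agilent arrays, and per the file headers spots were extracted with Feature Extraction 11.5.1.1, where the submitters' processing notes name 12.6. The deposited scanner values are linear intensity, background-subtracted and not scaled between arrays. The authors' series matrix holds log2 values that match the scanner values after the same 75th percentile shift. It served as an alternative, and its KHSRP siRNA columns 3 and 4 match each other's scanner files.

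Control spots and outlier-marked spots were dropped. The log2 signals of a probe's spots were averaged and set relative to the 75th percentile of the array. Testing required a share of 0.5 or more of the spots well above background on all 4 arrays of a group, which 18761 probes met. Groups followed the labels. limma 3.58.1 (R 4.3.3) compared them without a block, two-sided, with p-values adjusted by Benjamini-Hochberg across those 18761 probes, and a probe passed at an adjusted p under 0.05. Each array held 19145 to 20938 probes above background, and the number of arrays limits the precision.

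Probes were named through RefSeq accessions in the annotation of GRCh38.p14 (27241 of 42405 probes, 64.2%). Deviations of same-numbered arrays correlated at 0.57, 0.48, -0.69 and -0.67 by scanner file numbers, and at 0.57, 0.48, 0.86 and 0.86 by series matrix numbers. With the latter, same-numbered arrays always lay in the same correlated set. The other pairs across the groups within a set were also positive, at 0.40 to 0.45, and the labels state no pairing. On data simulated for the KHSRP siRNA comparison over 18761 probes, 58% of 2-fold and 91% of 4-fold changes were recovered, with 11 false calls. The simulated noise was independent between arrays, without the correlated sets of the real arrays. Probes not above background on all arrays were given the median SD of the others. These rates therefore need not hold for the real data.

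The members and lists were chosen with earlier results of these data known, and the motif definitions and sequences shown after values had been seen. Genes were named by rule: those with a probe that passed, the 3 highest and 3 lowest of each subunit, the listed paralogues with the genes they resemble, and genes of related lists that passed. The values of 1 gene of a related list are not reported here. Alternatives were other scalings, normexp, the series matrix, other filters, slide and replicate blocks, array weights, a variance trend, the methods' t-test, and leaving out each array.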

Additional observations from a re-analysis of the deposited data

Results flagged for a closer look

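Among the 58 groups of 4 arrays at the named probes, 5 held an array that stood apart by Dixon's ratio, the gap to the nearest array over the range of the group. Chance alone gives about 1 in 20 where probes are not picked by their values. These probes were named partly for the size of their change, which 1 outlying array can raise, so their share cannot be set against that rate. Over all 296 groups at member probes there were 15 (5.07%). Control siRNA array 2 was low at RPS10 A_23_P356484 (ratio 0.919), RPL35A A_23_P44956 (0.913) and RPS12 A_23_P82128 (0.840). At RPL36A A_23_P217609 control siRNA array 1 was low (0.839), by 0.21 from the next array. At RPS26 A_23_P139471 KHSRP siRNA array 3 was low (0.888), and without it the change was -1.25 with an adjusted p of 0.0043.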

How the results depend on the processing

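The calls in the ribosomal proteins were all of RPS26 outside the replicate block numbered as in the series matrix. The count was 1 in the reported fit, 2 with quantile normalization, with normexp and with array weights, 3 with an intensity trend and with the methods' t-test, 0 with the replicate block of the scanner file numbers and 7 with the replicate block of the series matrix numbers. It stayed at 1 without each array in turn, at the dim RPS26 probe and with the same probes tested as in the reported fit. Over all probes the count was 1039, and 570 with median scaling, 319 without a filter on dim probes, 156 and 5644 with the replicate blocks of scanner and series matrix numbers, and 489 to 766 without an array, which leaves fewer samples. In the related lists it was 8, and 5 without the filter, 3 and 29 with these blocks and 5 to 7 without an array. The median change of the ribosomal protein genes lay between -0.054 and 0.054 under all alternatives, and KHSRP passed in all of them. By the scanner numbers, control and KHSRP siRNA arrays 3 correlated negatively, as did arrays 4. The dim RPS26 probe lost its call with the block of the scanner numbers (adjusted p = 0.0623). Otherwise it had an adjusted p from 0.00089 to 0.026, except that the filter on all 8 arrays leaves it out. Under that filter 1 member probe passed, another probe of RPS26.

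Of the named probes that did not pass, some changed sign. With median scaling, RPL22 was at -0.047, RPL39 at -0.024, RPL7 at -0.063 and RPS27 at -0.036, where the median of all probes was -0.062. RPL7 was at -0.060 with normexp. With quantile normalization RPL26L1 was at 0.0044 and RPS27L at 0.0027. With array weights RPL22L1 was at 0.019 and RPL36A at 0.0016, and RPL36A was at 0.019 when scaled on detected probes. Without an array, the changes ranged from -0.028 to 0.086 (RPL22), -0.19 to 0.11 (RPL22L1), -0.11 to 0.028 (RPL26L1), -0.16 to 0.39 (RPL35A), -0.058 to 0.040 (RPL36A), -0.68 to 0.27 (RPL39L), -0.045 to 0.054 (RPL7), -0.20 to 0.97 (RPS10) and -0.17 to 0.054 (RPS27L). The cause was not tested. Of 776 values over 37 named probes, 694 kept direction and side of the threshold, 34 changed sign, 34 lost and 14 gained a call.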
